A study of Mus musculus with 16 samples.

Results

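The metalloproteinases of the Mmp, Adam and Adamts families, the ADAMTS-like proteins and the tissue inhibitors Timp1 to Timp4 were followed in sorted mouse tail epidermal cells that express SmoM2, an active form of the hedgehog transducer Smoothened that gives rise to basal cell carcinoma. Members were taken by gene symbol, and each was read from the probe set that names that gene alone and has the highest mean over the 16 arrays. This gave 70 members among the 18193 genes of the array annotation: 18 Mmp, 28 Adam, 15 Adamts, 5 Adamtsl and 4 Timp genes. Of these, 45 were tested because at least 2 arrays gave them a signal above the array's own 40th percentile, and 25 did not reach that level. The tested members were 12 Mmp, 14 Adam, 10 Adamts, 5 Adamtsl and 4 Timp genes.

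All animals carried the Rosa-SmoM2-YFP allele on a mixed strain background, controls included. Basal cells of the interfollicular epidermis (IFE) were sorted from K14CREER/Rosa-SmoM2-YFP mice, whose Cre recombinase is driven by the keratin 14 promoter and switched on by tamoxifen. Untreated mice gave 3 arrays (IFE control). SmoM2-positive cells gave 1 array at 3 days after tamoxifen, 3 arrays each at 1 week and at 4 weeks, and 2 arrays at 10 weeks. A further IFE group carried both of these alleles and β-catenin flox/flox (b-cat flox/flox) and was taken 4 weeks after tamoxifen (n = 2), so that SmoM2 acted while β-catenin was lost. Cells of the bulge and outer root sheath of the hair follicle came from K19CREERT2/Rosa-SmoM2-YFP mice, with 1 untreated array and 1 array of SmoM2-positive cells 4 weeks after tamoxifen. The source label of the untreated bulge array also speaks of SmoM2-positive cells, but its title gives it as a control, as which it served here. No group had tamoxifen without SmoM2 or β-catenin loss without SmoM2, so effects of tamoxifen, of the sort for SmoM2-positive cells and of β-catenin loss by itself cannot be told apart from the comparisons made here. Neither the animals' ages nor the number of mice behind an array is stated in the labels, and p-values measure only the spread between these samples.

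Matrix metalloproteinases (MMPs) are zinc enzymes made as inactive precursors that cut collagens, gelatins, proteoglycans and other proteins around cells, either as secreted enzymes or held at the cell surface. ADAM proteases sit in the membrane and release the outer parts of other membrane proteins, such as growth factors, cytokine precursors and adhesion molecules. ADAMTS proteases are secreted and anchored in the matrix, and a group of them cuts the hyalectans, large hyaluronan-binding proteoglycans such as versican and aggrecan. TIMPs bind the active site of MMPs, and Timp3 also blocks several ADAM and ADAMTS enzymes. In skin these enzymes remodel the basement membrane and the matrix beneath it, and they are known for their part in wound repair, hair follicle growth and carcinoma.

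Signals were on a log2 scale, so a difference of 1 is a 2-fold difference, and the 16 arrays had medians between 5.38 and 5.53. The basal keratinocyte markers averaged between 12.62 and 12.72 in the IFE controls and at least 11.64 in every array, which is the cell type in the labels. The hedgehog target Gli1 was higher by 4.91 ± 0.54 (SE) at 4 weeks than in control (limma, adjusted p = 0.00587). With β-catenin loss Gli1 read 7.22 and 9.56, against 9.95 to 10.83 with SmoM2 alone at 4 weeks and 5.30 to 5.73 in control. The signals of Ctnnb1, the gene of β-catenin, do not check its deletion, because where its probes lie was not examined: it had 12.76 and 12.93 with β-catenin loss and 12.76 to 13.04 in the IFE controls. Replicate 2 of the control, 1-week and 4-week groups had an upper quartile of about 7.5 against 7.67 to 7.78 in all other arrays. Sex was unevenly spread over the groups. The mean of 3 Y-linked genes was 3.41, 8.18 and 3.43 for IFE control. SmoM2 cells had 8.41, 7.58 and 6.02 at 4 weeks, and 8.10 and 8.15 at 10 weeks. The untreated bulge array had 6.35 and its SmoM2 partner 3.48. Differences from control can therefore include an effect of sex. With this mean as a covariate, 403 of all genes passed at 4 weeks and 158 at 10 weeks. A gene passed, and is said to rise or fall, where limma's p was under 0.05 after Benjamini-Hochberg adjustment across the 14285 genes in the test. Arrays of the same replicate number were also fitted as pairs (a block); at 10 weeks sample titles and descriptions number the arrays differently, so both numberings were used. In bulk signals, fewer cells of a type and less RNA per cell cannot be told apart.

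Adamts1 and Mmp11 rose at 4 weeks, Adamts5 rose at 10 weeks, and Adam10, Adamts9, Mmp11 and Timp2 were lower with β-catenin loss than with SmoM2 alone. Adam10 was lower only in the probe set used. Of the 70 members, 35 ranged over less than 1 log2 unit across the 16 arrays, and 15 of those 35 were among the 45 tested. The 25 members below the filter had signals between 2.94 and 5.97. Among them Adamts12 had the highest value, in the bulge control, and 20 of the 25 ranged over less than 1.

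**Figure D1:**
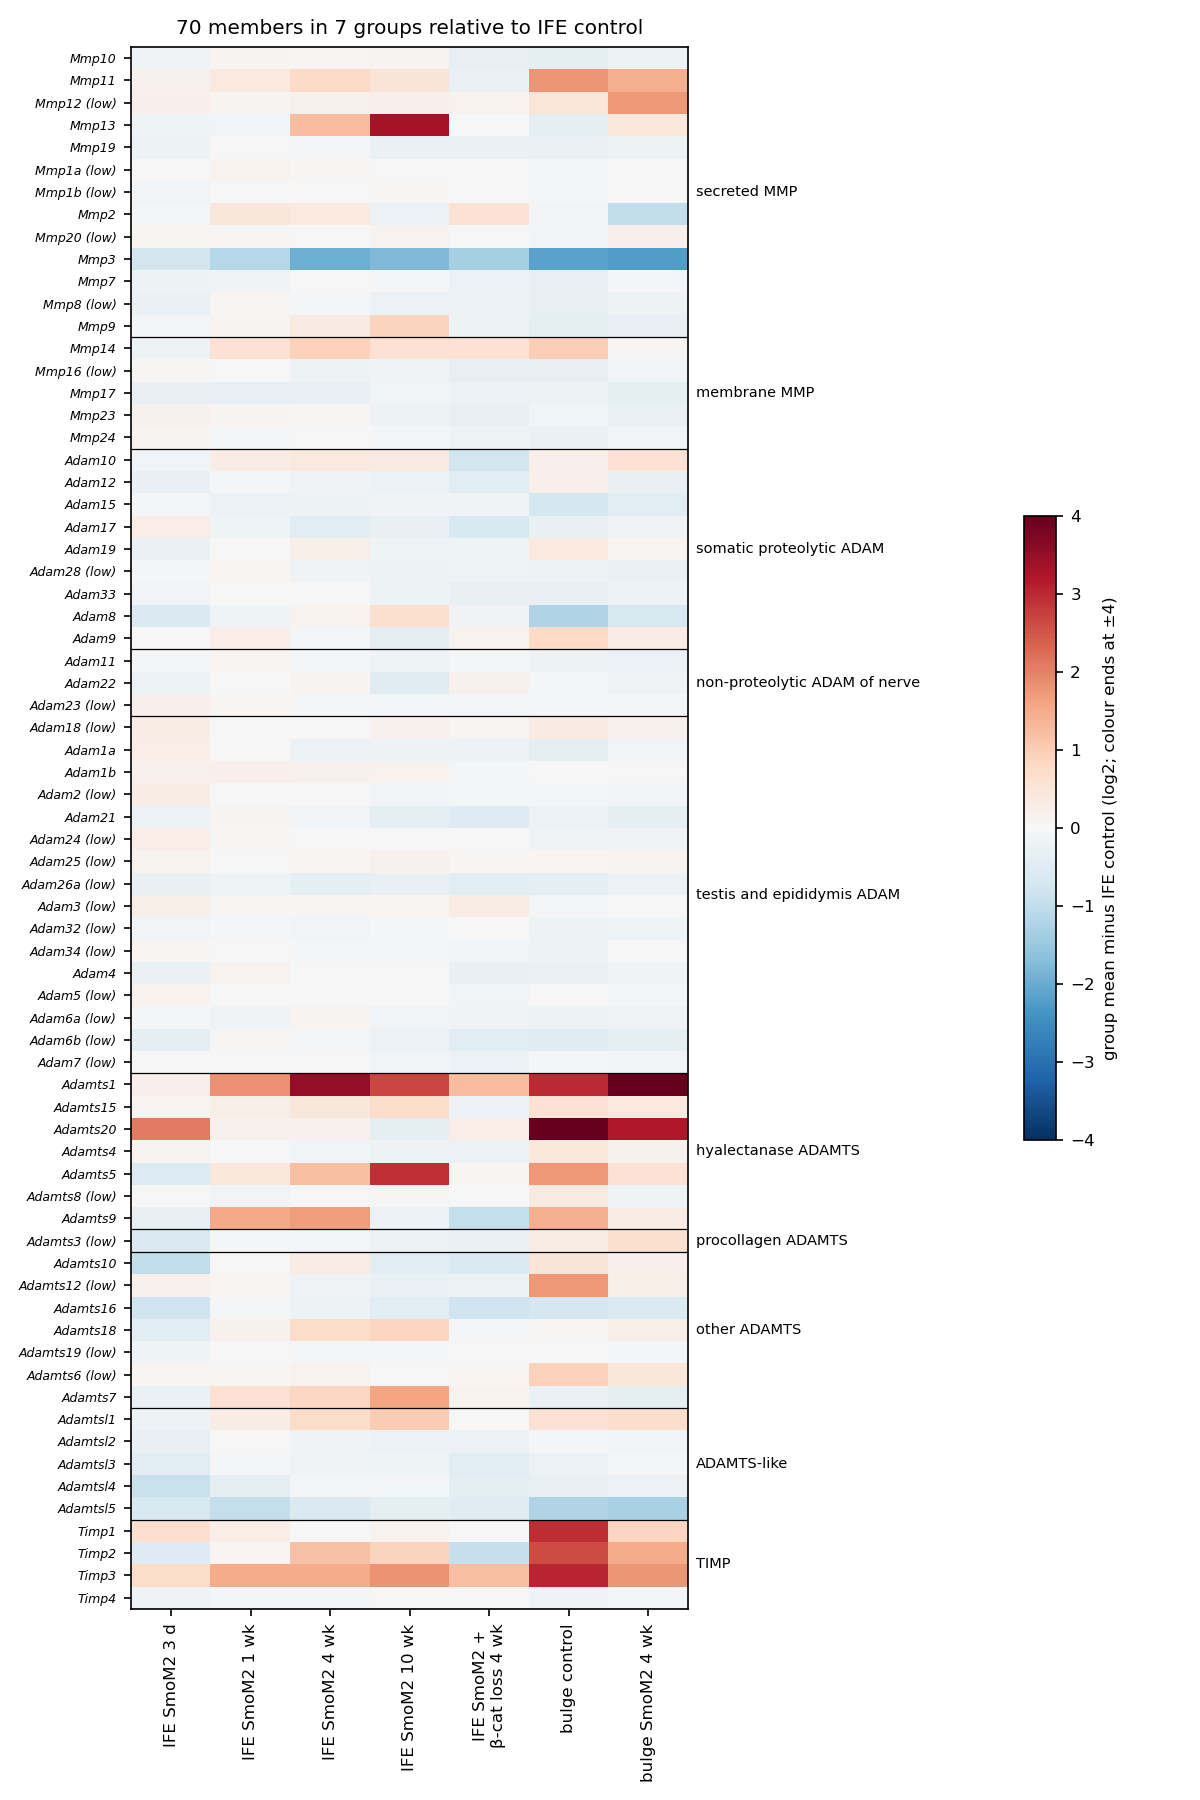
Mean log2 signal of each of the 70 members in 7 groups minus the mean of the 3 IFE control arrays, as colours that end at 4 log2 units in either direction, with the members in order of role and those below the signal filter marked low. Colour is concentrated in a few rows, such as Adamts1, Adamts5, Adamts9, Adamts20, Timp1, Timp2, Timp3, Mmp3 and Mmp13, and the Adamts20 difference in the bulge control, 6.73, lies beyond the end of the scale.

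Adamts1, a secreted protease that cuts versican and aggrecan, had log2 signals of 7.13, 7.33 and 6.89 in the 3 IFE controls and of 7.31 at 3 days. At 1 week its arrays read 9.06, 10.69 and 7.04, at 4 weeks 11.06, 9.81 and 11.04, and at 10 weeks 10.10 and 9.48. With β-catenin loss it read 7.96 and 8.73. Every array at 4 weeks, at 10 weeks and with β-catenin loss lay above every control, while replicate 3 at 1 week lay within the control range. From a mean of 7.12 ± 0.22 (SD, n = 3) in control, Adamts1 rose at 4 weeks to 10.64 ± 0.72 (SD, n = 3), a difference of 3.52 ± 0.70 (SE; adjusted p = 0.026) or 11.5-fold. The difference of 2.68 ± 0.79 at 10 weeks did not pass (adjusted p = 0.16), nor did that of 1.81 ± 0.70 at 1 week (adjusted p = 0.85). Leaving out any 1 array of the 4-week comparison other than replicate 2 at 4 weeks ended the call for Adamts1, with adjusted p between 0.0572 and 0.095 and a difference between 3.31 and 3.63, and without that replicate the difference was 3.94 (adjusted p = 0.0365).

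The 250 bases before the start of Adamts1 (chr16:85803114-85803363, minus strand, RefSeq on GRCm38.p6) are shown because Adamts1 had the largest rise. They are written 5′ to 3′ in the direction of the gene, and the capitals mark the TATA box letters TATAAA, which begin 32 bases before the start.

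Adamts1: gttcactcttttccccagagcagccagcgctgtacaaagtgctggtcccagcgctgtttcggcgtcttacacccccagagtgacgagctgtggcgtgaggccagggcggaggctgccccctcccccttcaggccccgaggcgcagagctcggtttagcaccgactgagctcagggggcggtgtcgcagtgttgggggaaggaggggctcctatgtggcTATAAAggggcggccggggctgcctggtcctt

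The hedgehog factor motif searched, GACCACCCA on either strand, was in none of the 46 promoter windows of the 41 members that the table holds, and in 0.225% of all 32851 windows. The Tcf/Lef letters CTTTGAT, on either strand, were in 1 of the 46 windows (2.17%, that of Mmp7) and in 3.21% of all windows. Finding or missing these letters describes the window and nothing more.

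Adamts5, the aggrecan-cutting enzyme of cartilage, lies next to Adamts1 on chromosome 16, with no protein-coding gene between them in the RefSeq table. Its signals were 5.29, 5.01 and 5.71 in control, 4.78 at 3 days and 5.68, 6.43 and 5.15 at 1 week. They were 6.02, 6.49 and 7.11 at 4 weeks, 8.32 and 8.19 at 10 weeks, and 5.27 and 5.59 with β-catenin loss. The arrays of 4 and 10 weeks lay above all controls and did not overlap each other, and the loss arrays lay within the control range. At 10 weeks Adamts5 rose by 2.92 ± 0.39 (SE; adjusted p = 0.0122; n = 2 and 3), which is 7.55-fold. At 4 weeks the difference was 1.20 ± 0.34 and did not pass (adjusted p = 0.09), and between 10 and 4 weeks it was 1.71 ± 0.39 (adjusted p = 0.579). Without replicate 1 or replicate 2 at 10 weeks the differences of 2.85 and 2.98 from control no longer passed (adjusted p = 0.226 and 0.194). The other 3 probe sets of Adamts5 differed from control at 10 weeks by 1.37, 2.71 and 0.17, the last at a mean signal of 3.11.

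Adamts9, which cuts versican, had 7.87, 7.05 and 7.26 in control and 7.08 at 3 days. It read 9.36, 9.36 and 8.0 at 1 week and 10.25, 7.79 and 9.19 at 4 weeks, then 7.14 and 7.18 at 10 weeks. With β-catenin loss its signals of 6.24 and 6.66 were below every other IFE array in the probe set used, with a difference of −0.94 from control. All 1-week arrays lay above the controls, replicate 2 at 4 weeks lay within them, and the 10-week arrays were back in the control range. None of the time points passed against control (differences of 1.52 ± 0.54 at 1 week, adjusted p = 0.747, and 1.69 ± 0.54 at 4 weeks, adjusted p = 0.13). The change between 4 and 10 weeks, −1.91 ± 0.60, did not pass either (adjusted p = 0.794). The other probe sets of Adamts9 differed from control by 0.005 and −0.17 with β-catenin loss. At 10 weeks they differed from control by 0.51 and −0.27, against −0.23 in the one used.

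Of the other hyalectan-cutting members tested, Adamts4 stayed between 4.68 and 5.47 in all 16 arrays. Adamts15 stood out in replicate 2 at 4 weeks (6.29) and read 5.44 and 5.29 at 10 weeks, against 4.34 to 5.21 in the remaining arrays. Adamts20 was near the bottom of the scale in most IFE arrays and is described with the bulge. Over the 6 members of this group tested, 5 had a positive difference at 4 weeks, 1 passed (Adamts1), and the median difference was 0.82, against −0.05 for all 14285 genes tested. At 10 weeks 3 of the 6 were positive, 1 passed (Adamts5) and the median was 0.26. With β-catenin loss 3 of the 6 were positive against control, with a median of −0.06 and none past the threshold.

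Outside that group, Adamts7, which cuts cartilage oligomeric matrix protein, had 5.06, 4.49 and 4.32 in control, 5.63, 6.05 and 4.65 at 4 weeks, and 6.27 and 6.11 at 10 weeks. Both 10-week arrays lay above the controls, with a difference of 1.57 ± 0.39 that did not pass (adjusted p = 0.102). It passed under 3 of 16 alternatives: with the replicate number of the sample descriptions as a block (adjusted p = 0.0246), with only the groups compared (adjusted p = 0.0185) and with array weights (adjusted p = 0.00158). Adamts18 read 4.14 to 4.6 in control and 5.24 and 5.21 at 10 weeks (difference 0.87 ± 0.34, adjusted p = 0.33). Adamts10, which associates with fibrillin microfibrils, and Adamts16 lay between 4.96 and 6.5 and between 5.85 and 7.57. Adamts3, the procollagen-processing member on the array, was below the filter with signals of at most 4.59.

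The ADAMTS-like proteins keep the matrix-binding parts of the family and have no protease domain. None of the 5 passed in any comparison by limma. At an unadjusted p under 0.05 it had Adamtsl4 at 3 days, Adamtsl5 at 1 week and at 4 weeks, and Adamtsl1 at 4 and 10 weeks, all against control. Adamtsl1 had 5.30, 4.87 and 5.0 in control and 6.09 and 6.06 at 10 weeks, a difference of 1.02 ± 0.35 (adjusted p = 0.255). Its other probe sets, at mean signals of 5.17 and 4.37 against 5.45 for the one used, differed by 2.97 and 0.77 at 10 weeks. At 4 weeks they differed from control by 1.79 and 0.62, against 0.75. Adamtsl5 went the other way: 6.41, 6.51 and 6.14 in control against 5.73 at 3 days, 5.5, 5.20 and 5.45 at 1 week, 5.51, 6.16 and 5.62 at 4 weeks and 5.93 and 5.97 at 10 weeks. Its difference at 1 week was −0.97 ± 0.22 (adjusted p = 0.339), without overlap between the groups. Adamtsl2, Adamtsl3 and Adamtsl4 ranged over 0.85, 0.65 and 1.5.

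**Figure D2:**
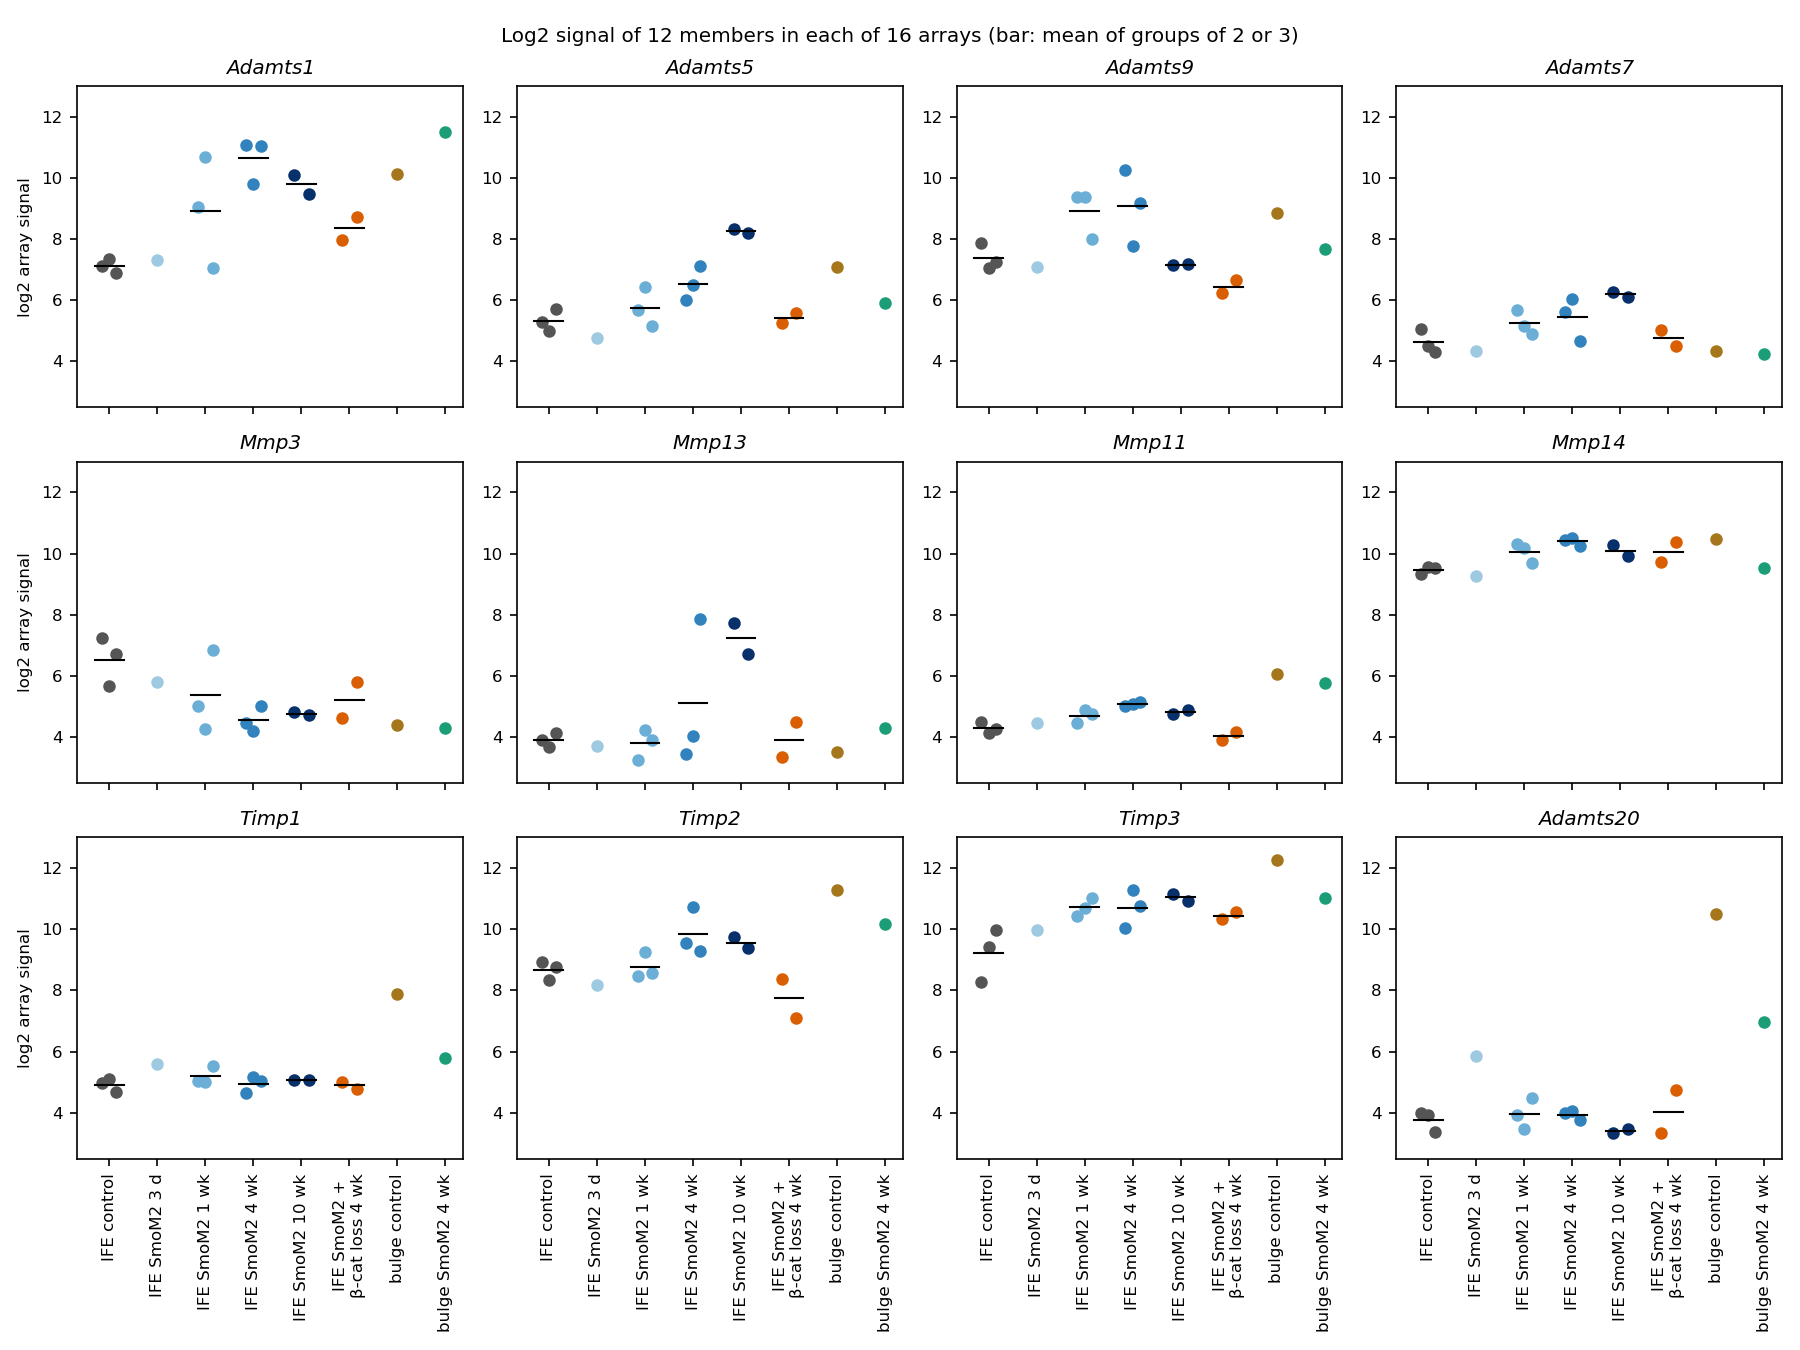
Log2 signal (vertical axis) of 12 members in each of the 16 arrays, with 1 point an array, 1 column a group and a bar at the mean of groups of 2 or 3. Adamts1 is between 9.81 and 11.06 at 4 weeks against 6.89 to 7.33 in IFE control, Adamts5 is highest at 10 weeks, and Timp1 and Adamts20 stand high in the single bulge control array.

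Among the secreted MMPs, Mmp11 rose at 4 weeks. Mmp11, or stromelysin-3, is activated inside the cell by furin and is known from the matrix around carcinomas. It read 4.49, 4.15 and 4.28 in control, 4.47 at 3 days, 4.45, 4.88 and 4.76 at 1 week, 5.02, 5.08 and 5.16 at 4 weeks, 4.76 and 4.90 at 10 weeks, and 3.91 and 4.17 with β-catenin loss. All 4-week and 10-week arrays were above all controls, but all IFE signals of Mmp11 lie below the median of every array. In every control and loss array Mmp11 read below Adam23, which did not reach the filter. Mmp11 was thus tested only because of other arrays, where its signal was higher. The rise at 4 weeks was 0.78 ± 0.18 (SE; adjusted p = 0.0366; n = 3 and 3) or 1.72-fold, and at 10 weeks the difference was 0.53 ± 0.20 (adjusted p = 0.305). The call at 4 weeks was lost without any 1 of the 6 arrays, with adjusted p between 0.066 and 0.145.

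Mmp3, or stromelysin-1, which cuts proteoglycans and basement membrane proteins and activates other MMPs, had 7.24, 5.66 and 6.71 in control and 5.79 at 3 days. It read 5.03, 4.27 and 6.86 at 1 week, 4.46, 4.20 and 5.03 at 4 weeks, 4.81 and 4.71 at 10 weeks, and 4.64 and 5.80 with β-catenin loss. All arrays of 4 and 10 weeks were below all controls, which themselves spread over 0.80 (SD). The differences, −1.97 ± 0.60 at 4 weeks and −1.78 ± 0.67 at 10 weeks, did not pass (adjusted p = 0.109 and 0.306).

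Mmp13, or collagenase-3, the main collagenase of rodents for fibrillar collagen, was low in most arrays. It had 3.91, 3.67 and 4.12 in control, 3.47, 4.03 and 7.88 at 4 weeks, and 7.73 and 6.72 at 10 weeks. These 3 arrays, replicate 3 at 4 weeks and both at 10 weeks, stood apart, and the highest of the other 13 read 4.49. Mmp13 reached the signal filter through these 3 arrays, so its difference at 10 weeks rests on values that let it be tested. The difference at 10 weeks was 3.33 ± 0.99 and did not pass (adjusted p = 0.165), and at 4 weeks it was 1.22 ± 0.88 (adjusted p = 0.619). The alarmin S100a8, which neutrophils and stressed keratinocytes express, read 11.55 in that 4-week array and 13.04 and 12.40 at 10 weeks. But it was also 12.30 in replicate 2 at 4 weeks, 10.79 and 12.35 with β-catenin loss, 12.17 in the SmoM2 bulge array and 10.66 in control replicate 3. In these arrays Mmp13 was at most 4.49. The macrophage and neutrophil list (9 genes measured) averaged 6.56 and 6.70 at 10 weeks against 5.20 to 6.53 in control. S100a8 and S100a9 carry that mean: of the 8 genes of the list tested, 3 had a positive difference at 10 weeks, the median was −0.26 and none passed. Its defining leukocyte marker Ptprc read 3.90 and 3.88 against 4.16 to 5.01, and Itgam was below the filter. The part of such cells in the Mmp13 signal was not tested.

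Mmp3 and Mmp13 belong to a row of 9 Mmp members on chromosome 9. Their promoter windows of 250 bases (RefSeq, GRCm38.p6, plus strand, chr9:7445572-7445821 for Mmp3 and chr9:7272264-7272513 for Mmp13) are shown because the 2 genes share motif letters, although their differences from control, which did not pass, had opposite signs. Mmp12 and Mmp1b lie between them. The capitals mark an AP-1 site, TGAGTCA or its reverse complement TGACTCA, and then the TATA box letters TATAAA.
Mmp3: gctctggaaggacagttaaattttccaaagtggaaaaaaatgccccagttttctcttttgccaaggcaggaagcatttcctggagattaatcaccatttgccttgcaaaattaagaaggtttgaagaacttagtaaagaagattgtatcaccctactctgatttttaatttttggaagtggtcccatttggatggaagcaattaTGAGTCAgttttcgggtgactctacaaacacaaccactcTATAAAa
Mmp13: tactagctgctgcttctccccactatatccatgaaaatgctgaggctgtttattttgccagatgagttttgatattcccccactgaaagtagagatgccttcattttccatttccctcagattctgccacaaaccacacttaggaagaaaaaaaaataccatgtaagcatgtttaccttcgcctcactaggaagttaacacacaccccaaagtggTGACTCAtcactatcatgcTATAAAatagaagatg

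The AP-1 letters begin 46 bases before the start in Mmp3 and 35 bases before it in Mmp13. The letters TATAAA begin 7 bases before the annotated start in Mmp3 and 16 bases before it in Mmp13. TGAGTCA, on either strand, was in 8 of the 46 member windows (17.4%) and in 4.46% of all windows. The 8 genes were Adam19, Mmp1a, Mmp1b, Mmp3, Mmp7, Mmp10, Mmp12 and Mmp13, so 7 of the 9 cluster genes held it and Mmp8 and Mmp20 did not. TATAAA, as read along the gene, was in 9 of the 46 windows (19.6%) and in 7.59% of all. Of the cluster, Mmp1a, Mmp1b, Mmp8, Mmp12 and Mmp20 were below the signal filter, and Mmp7 and Mmp10 ranged over 0.80 and 0.98.

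The gelatinases cut denatured collagen and the type IV collagen of basement membranes. Mmp2, gelatinase A, had 10.49, 9.86 and 10.47 in control, 11.59, 10.39 and 10.24 at 1 week, 11.55, 10.50 and 9.91 at 4 weeks, 9.92 and 10.14 at 10 weeks and 11.04 and 10.69 with β-catenin loss. The 1-week, 4-week and 10-week arrays each overlapped the control range, and the loss arrays lay above the controls by 0.59 ± 0.47 (adjusted p = 0.576). Mmp9, gelatinase B, read 5.09 to 5.17 in control and 6.67 and 5.42 at 10 weeks, a difference of 0.90 ± 0.36 (adjusted p = 0.357). Mmp19 ranged over 0.71.

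Mmp14, the membrane-type MMP that activates Mmp2 together with Timp2, had 9.33, 9.56 and 9.54 in control and 9.27 at 3 days. It read 10.32, 10.18 and 9.68 at 1 week, 10.45, 10.52 and 10.25 at 4 weeks, 10.27 and 9.91 at 10 weeks and 9.73 and 10.38 with β-catenin loss. Every IFE array from 1 week on lay above every IFE control. The difference of 0.93 ± 0.23 at 4 weeks did not pass (adjusted p = 0.0506), and it passed with the replicate number as a block (adjusted p = 0.0376 by title, 0.0259 by description). The other membrane members tested, Mmp17, Mmp23 and Mmp24, ranged over 0.92, 0.99 and 0.72, and Mmp16 was below the filter.

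Among the inhibitors, Timp3, which is bound to the matrix and also blocks Adam17 and aggrecanases, had 8.29, 9.42 and 9.98 in control and 9.97 at 3 days. Its signals were 10.44, 10.70 and 11.04 at 1 week, 10.06, 11.29 and 10.76 at 4 weeks, 11.14 and 10.94 at 10 weeks and 10.33 and 10.56 with β-catenin loss. All of these exceeded the highest control. The differences were 1.5 ± 0.40 at 1 week (adjusted p = 0.436), 1.47 ± 0.40 at 4 weeks (adjusted p = 0.0741), 1.81 ± 0.45 at 10 weeks (adjusted p = 0.1) and 1.22 ± 0.45 with loss (adjusted p = 0.238), and none passed. With the replicate block Timp3 passed at 4 weeks (adjusted p = 0.0261 by title and 0.0194 by description) and, by title, at 10 weeks (adjusted p = 0.0372; 0.0501 by description). Its other 3 probe sets differed in the same direction at 4 weeks, by 0.71, 1.33 and 0.95.

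Timp2, an inhibitor that also takes part in Mmp2 activation, had 8.92, 8.35 and 8.77 in control and 8.16 at 3 days. It read 8.47, 9.26 and 8.58 at 1 week, 9.54, 10.74 and 9.27 at 4 weeks, 9.73 and 9.39 at 10 weeks, and 8.38 and 7.11 with β-catenin loss. The 4-week arrays lay above all control and 1-week arrays, with a difference from control of 1.17 ± 0.41 (adjusted p = 0.175). The other probe sets of Timp2 differed at 4 weeks by 1.22, 0.41, 0.26, 0.17 and −0.18, and with the mean of all its probe sets the difference was 0.51. Timp1, the inducible inhibitor, stayed between 4.65 and 5.59 in all 14 IFE arrays, and Timp4 between 4.81 and 5.4 in all 16.

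Among the somatic ADAM proteases, Adam17, which releases tumour necrosis factor and ligands of the EGF receptor, read 8.34 to 9.57 over the 16 arrays, and its differences from control lay between −0.60 and 0.27. The other probe sets of Adam17 differed from control at 10 weeks by 0.80 and 0.47, against −0.31 in the one used. With β-catenin loss they differed by 0.52 and 0.09, against −0.60. Adam9 read 9.13 to 10.42 and Adam15 8.16 to 9.19, without a difference that passed. Adam8, known from leukocytes, had 7.04, 6.59 and 7.07 in control and 7.78 and 7.28 at 10 weeks, a difference of 0.63 ± 0.31 (adjusted p = 0.53). Adam12, Adam19 and Adam33 ranged over 0.99, 0.82 and 1.18. Of the 16 ADAM genes known from testis and epididymis, 12 were below the filter, and none of the 16 ranged over more than 1.20. Adam23, a non-proteolytic member of nerve, was below the filter too.

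**Figure D3:**
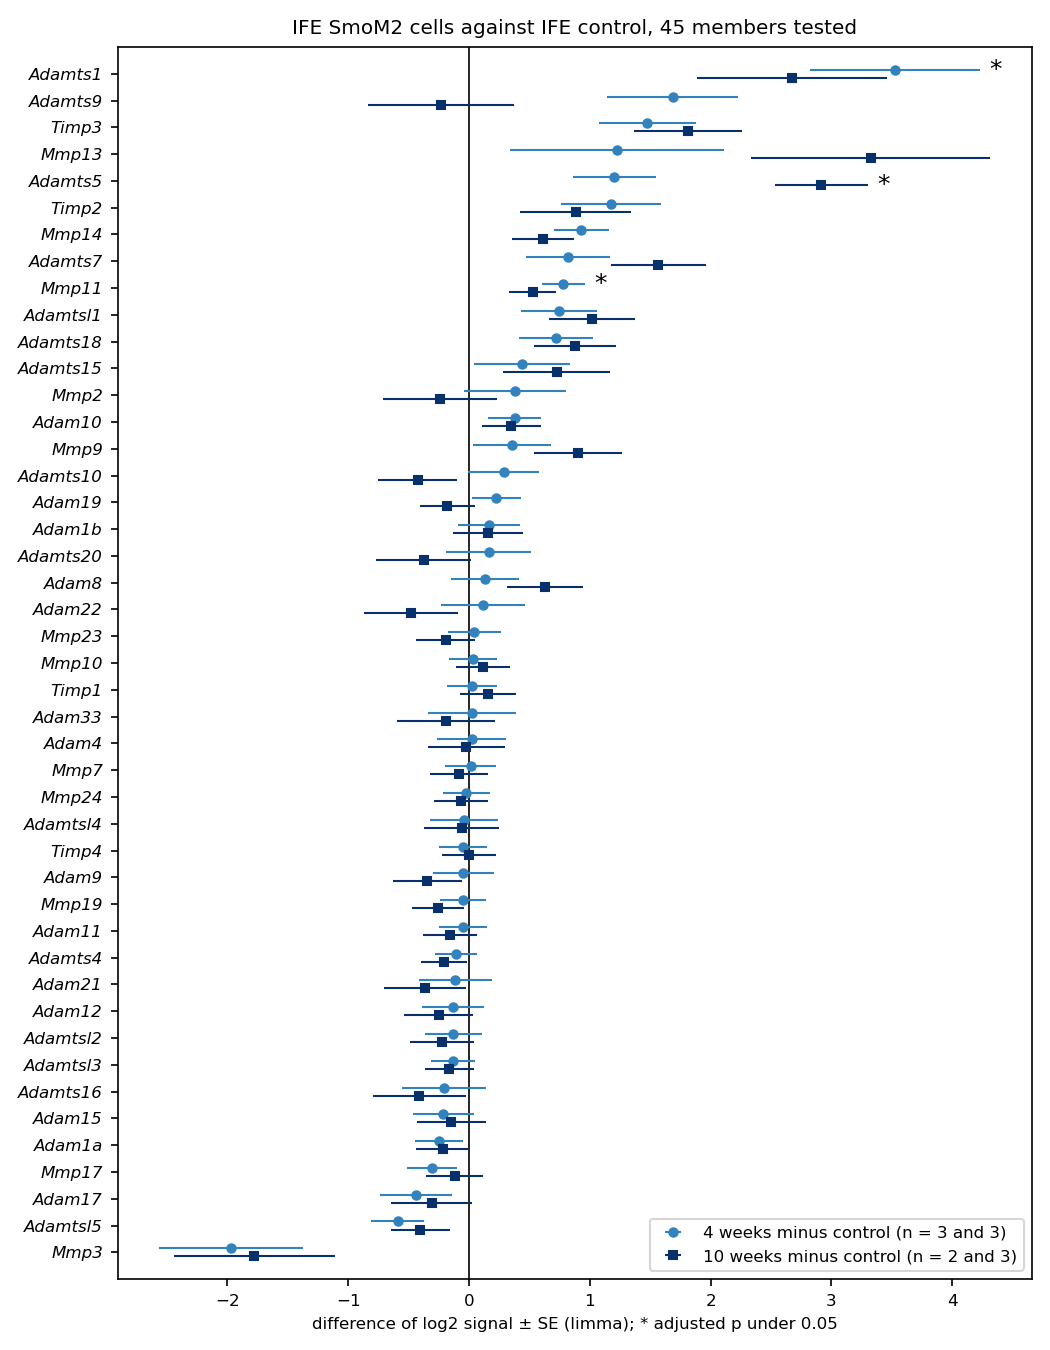
Difference of log2 signal from IFE control (horizontal axis, with the standard error of the limma model) for the 45 members tested, at 4 weeks (circles, n = 3 and 3) and at 10 weeks (squares, n = 2 and 3), with a star at an adjusted p under 0.05. The stars are at Adamts1 (3.52) and Mmp11 (0.78) at 4 weeks and Adamts5 (2.92) at 10 weeks, and Mmp3 lies farthest to the left.

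Counted over the 45 members, 2 rose and none fell at 4 weeks (4.44% in either direction), where 3.24% of the 14285 genes passed, 2.44% higher and 0.798% lower. The share of members is close to that of all genes. Of the members, 27 had a positive difference and the median was 0.03, against 44.3% of all genes and a median of −0.05. With the replicate number as a block, 4 members passed at 4 weeks, Adamts1, Mmp11, Mmp14 and Timp3, while the share of all genes went from 3.24% to 6.11% by title number and 5.99% by description number. The count fell to 0 without any 1 array of control or replicate 1 or 3 at 4 weeks, and without replicate 2 at 4 weeks it was 2, Adamts1 and Adamts9. By the other rule, a difference of at least 2-fold between groups that do not overlap, 4 members were higher (Adamts1, Adamts5, Timp2 and Timp3; 4.07% of all genes) and 1 was lower (Mmp3; 2.27% of all genes). Of the dermal fibroblast list, 1 of the 8 genes tested passed at 4 weeks: the proteoglycan Dcn, with 9.0, 8.67 and 9.22 in control and 12.53, 10.69 and 11.46 at 4 weeks. The list's mean lay between 6.01 and 6.62 in control and between 6.14 and 6.81 at 4 weeks, and its collagen Col1a1 read 3.78 to 4.81 in all IFE arrays. Thy1 of the same list was lower, with 8.05 to 8.32 in control and 7.71, 4.67 and 7.34 at 4 weeks, and did not pass. Col1a2 read 8.38, 6.54 and 7.12 at 4 weeks against 5.70 to 6.69 in control, and Lum 5.33, 4.51 and 4.47 against 3.88 to 4.33. Of the 8 differences 5 were positive, with a median of 0.17. At an unadjusted p under 0.05 limma had Col1a2, Dcn, Lum and Thy1 of the list, beside 15.1% of all genes.

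The hair follicle bulge list (6 genes) had a mean of 7.50 to 7.92 in control, 9.15 to 9.81 at 4 weeks and 11.17 in the bulge control array. Lgr5, Lhx2 and Tcf7l1 of this list rose at 4 weeks, 5 of the 6 differences were positive and the median was 1.67. Cd34, the bulge marker of the list, read 3.68, 4.10 and 4.35 at 4 weeks against 3.78 to 4.15 in control and 9.72 in the bulge control. Adamts1 and Mmp11, which rose at 4 weeks, and Adamts5, which rose at 10 weeks, were each also higher in the bulge control array than in all IFE controls. The sebaceous gland list averaged 7.74 to 9.38 at 4 weeks against 9.60 to 10.46 in control, and the basal keratinocyte list 12.05 to 12.21 against 12.62 to 12.72, with no gene of either list past the threshold. The part of these cells in the 4-week differences was not tested.

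At 10 weeks 1 of the 45 members rose and none fell, against 0.7% of all genes in either direction, 0.567% higher and 0.133% lower. With the block it was 2 members, Adamts5 and Timp3 by title number (1.14% of all genes) and Adamts5 and Adamts7 by description number (1.45%). Without either 10-week array it was 0. At least 2-fold without overlap, 6 members were higher (Adamts1, Adamts5, Adamts7, Adamtsl1, Mmp13 and Timp3; 4.62% of all genes) and 1 was lower (Mmp3; 2.55%). Of these, Mmp13 reached the signal filter through the arrays where it was high, both 10-week arrays included. The fibroblast list averaged 6.02 and 6.14 at 10 weeks, within its range in control, but its genes went different ways: Dcn read 11.76 and 11.37, above its controls, and Thy1 6.13 and 6.32, below them, and neither passed. The bulge list averaged 9.44 and 9.31, with Lgr5 and Lhx2 past the threshold and Cd34 at 4.04 and 3.69. The sebaceous list averaged 8.41 and 8.70, the melanocyte list at most 6.82 against at least 7.42 in control, and no gene of these 2 lists passed. The part of these cells was not tested.

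At 1 week limma called none of the 45 members and none of the 14285 genes (0%), and at an unadjusted p under 0.05 it had 6 members (Adamts1, Adamts9, Adamtsl5, Mmp11, Mmp14 and Timp3) and 4.74% of all genes. Adamts9 and Timp3 were at least 2-fold higher without overlap (1.53% of all genes), and no member was lower (0.294%). The array of 3 days had no replicate, and the spread of the other groups was taken for it. There, no member and no gene passed (0%), and 4 members had an unadjusted p under 0.05 (Adamts10, Adamts20, Adamtsl4 and Timp1; 1.55% of all genes). Only Adamts20 was at least 2-fold higher outside the control range (1.63%), and no member was lower (0.518%). Adamts20 reached the signal filter through this array and the bulge arrays, so this count rests on a value that let it be tested.

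Between time points no member passed. Neither 4 weeks against 1 week nor 10 weeks against 4 weeks gave any gene past the limma threshold (0%). At an unadjusted p under 0.05 there were 4 members (Adamts1, Adamts5, Mmp11 and Timp2) and 4.82% of all genes between 1 and 4 weeks, and 2 members (Adamts5 and Adamts9) and 6.25% of all genes between 4 and 10 weeks. Timp2 was 2.12-fold higher at 4 weeks than at 1 week without overlap, as 0.392% of all genes were higher. Adamts5 was higher and Adamts9 lower at 10 weeks than at 4 weeks by that rule, among 1.4% and 1.13% of all genes.

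With β-catenin loss, 4 members were lower than with SmoM2 alone at 4 weeks and none was higher, against 1.58% of all genes lower, 0.644% higher and 2.23% in either direction. They were Adamts9, Timp2, Adam10 and Mmp11. Over the 45 members 10 differences were positive and the median was −0.29, against 41.6% of all genes and a median of −0.09. Adamts9 was lower by 2.63 ± 0.61 (SE; adjusted p = 0.0491; n = 2 and 3) or 6.19-fold, and its other probe sets differed by −2.77 and −1.0. Timp2 was lower by 2.11 ± 0.46 (adjusted p = 0.0431) or 4.31-fold, and its other 5 probe sets differed by −1.62 to −0.10. For both genes no array of the loss group reached the lowest of SmoM2 alone. Mmp11 was lower by 1.05 ± 0.20 (adjusted p = 0.0288), which is 2.07-fold, and had no other probe set. Its loss signals of 3.91 and 4.17 lay near the bottom of the scale, and it reached the filter only through other arrays.

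Adam10, the protease that cuts Notch and E-cadherin at the cell surface, had 10.47, 10.81 and 10.49 in control, 10.79, 10.95 and 11.17 with SmoM2 alone at 4 weeks and 9.50 and 10.23 with β-catenin loss. Both loss arrays lay below all other arrays of the series, and the difference was −1.10 ± 0.25 (SE; adjusted p = 0.045). The other 3 probe sets of Adam10 did not show it, with differences of 0.24, 0.03 and 0.12, and with the mean of all 4 the difference was −0.18 (adjusted p = 0.811). The probe set used had the highest signal of the 4.

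At an unadjusted p under 0.05 limma had 8 members and 17.2% of all genes. Adamts1 and Adamts5 were also at least 2-fold lower with loss than with SmoM2 alone without overlap, by 2.29 ± 0.79 (adjusted p = 0.154) and 1.11 ± 0.39 (adjusted p = 0.159), neither of which passed. With the 4 above, 6 members were lower by that rule (5.26% of all genes) and none was higher (3.07%). Adamts10 differed by −0.87 ± 0.33 (adjusted p = 0.194) and passed with the replicate block by title number (adjusted p = 0.0239). Timp3 and Mmp14 differed by −0.26 ± 0.45 and −0.35 ± 0.26 (adjusted p = 0.817 and 0.538).

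The 4 calls rested on few arrays. Without replicate 1 of SmoM2 alone, or without replicate 1 of the loss group, none of the 4 passed. Without replicate 2 of SmoM2 alone Adamts9 and Mmp11 passed, without its replicate 3 Mmp11 and Timp2 passed, and without replicate 2 of the loss group Adam10 and Mmp11 passed. The sexes were not balanced either: 3 Y-linked genes averaged 3.39 and 6.91 in the loss arrays and 8.41, 7.58 and 6.02 with SmoM2 alone. With that average as a covariate Mmp11 and Timp2 passed (adjusted p = 0.044 and 0.0399) and Adam10 and Adamts9 did not (adjusted p = 0.094 and 0.0826). Hedgehog targets were also lower with loss, replicate 1 more than replicate 2. Gli1 read 7.22 and 9.56, and Ptch1 10.71 and 12.50 against 12.64 to 13.60 with SmoM2 alone. Hhip read 4.36 and 7.79 against 8.84 to 11.19 with SmoM2 alone and 5.09 to 7.12 in control. How far this bears on the 4 calls was not tested. The fibroblast list averaged 5.01 and 5.78 in the loss arrays, below the 6.14 to 6.81 of SmoM2 alone, with Dcn at 7.78 and 10.49. The melanocyte list averaged 5.59 and 5.72 against 6.30 to 8.10. The sebaceous list was higher with loss, 10.66 and 10.31 against 7.74 to 9.38, with 4 of 4 differences positive and a median of 1.70. The bulge list was lower, 8.15 and 8.96 against 9.15 to 9.81, with a median of −0.42. No gene of these 4 lists passed by limma. At an unadjusted p under 0.05 it had 4 of the fibroblast, 1 of the melanocyte, 4 of the sebaceous and 3 of the bulge list, beside 17.2% of all genes. The part of these cells was not tested.

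Against the IFE control, limma called no member in the loss group, with 0.231% of all genes called higher, 0.14% lower and 0.371% in either direction. At an unadjusted p under 0.05 there were 3 members (Adam10, Mmp14 and Timp3) and 14.6% of all genes. Adamts1 and Timp3 were at least 2-fold higher than control without overlap (2.63% of all genes) and no member was lower (3.49%). Adamts1 differed from control by 1.23 ± 0.79 (adjusted p = 0.491). Both comparisons of the loss group share its 2 arrays.

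The bulge arrays have no replicates and were not tested. The untreated bulge array had the stem cell marker Cd34 at 9.72 against 3.78 to 4.15 in the IFE controls. Adamts20, a versican-cutting enzyme known for the white belt of mice that lack it, read 10.50 there and 6.97 in the SmoM2 bulge array. In the IFE it read 4.00, 3.95 and 3.38 in control and at most 4.76 in the other IFE arrays apart from the 3-day array, with 5.85. The 4.76 was replicate 2 with β-catenin loss, and replicate 3 at 1 week followed with 4.48. Cd34 was 5.41 in the 3-day array, 5.63 in that 1-week array, 3.95 in that loss array and at most 4.35 in the other IFE arrays. The other genes of the bulge list did not all follow Cd34: at 3 days 3 of the 6 were above control on average, and Tcf7l1 read 7.04 against 7.30 to 7.63. The part of bulge cells in these values was not tested.

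In all, 8 members were at least 2-fold higher in the bulge control than in the mean of the IFE controls: Adamts1, Adamts5, Adamts9, Adamts20, Mmp11, Timp1, Timp2 and Timp3 (7.25% of all genes). Adam8, Adamtsl5 and Mmp3 were lower (5.68%). All 11 lay outside the range of the IFE controls. Timp1 read 7.89 in the bulge control against 4.69 to 5.10, Timp2 11.28 against 8.35 to 8.92, Timp3 12.28 against 8.29 to 9.98 and Adamts1 10.11 against 6.89 to 7.33. Mmp3 read 4.40 against an IFE mean of 6.53. Genotype and cell type differ together here.

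In SmoM2 bulge cells, 1 member was at least 2-fold higher than in the bulge control (Adamts1, 11.51 against 10.11; 4.35% of all genes). There were 6 lower members: Adamts20, Timp1, Timp3, Adamts5, Adamts9 and Timp2 (2.59% of all genes). Timp1 read 5.78 against 7.89, Timp3 differed by −1.27 from its 12.28, and Timp2 10.16 against 11.28. Smaller positive differences were those of Mmp13 (4.31 against 3.53), Adam8 (6.27 against 5.69), Adam10 (11.18 against 10.78) and Adam1a (4.76 against 4.47). Cell markers differed between these arrays too: Cd34 read 6.83 against 9.72 in the control, and the smooth muscle gene Acta2 8.99 against 12.38. The macrophage and neutrophil list averaged 7.28 against 6.09, and the Langerhans cell list 7.92 against 6.41. The part of such cells in the differences was not tested. Adamts5 and Adamts9 were higher in the SmoM2 arrays of the IFE at 4 weeks than in its controls on average and lower in the SmoM2 bulge array than in its control, a contrast between cell types that was not tested.

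**Figure D4:**
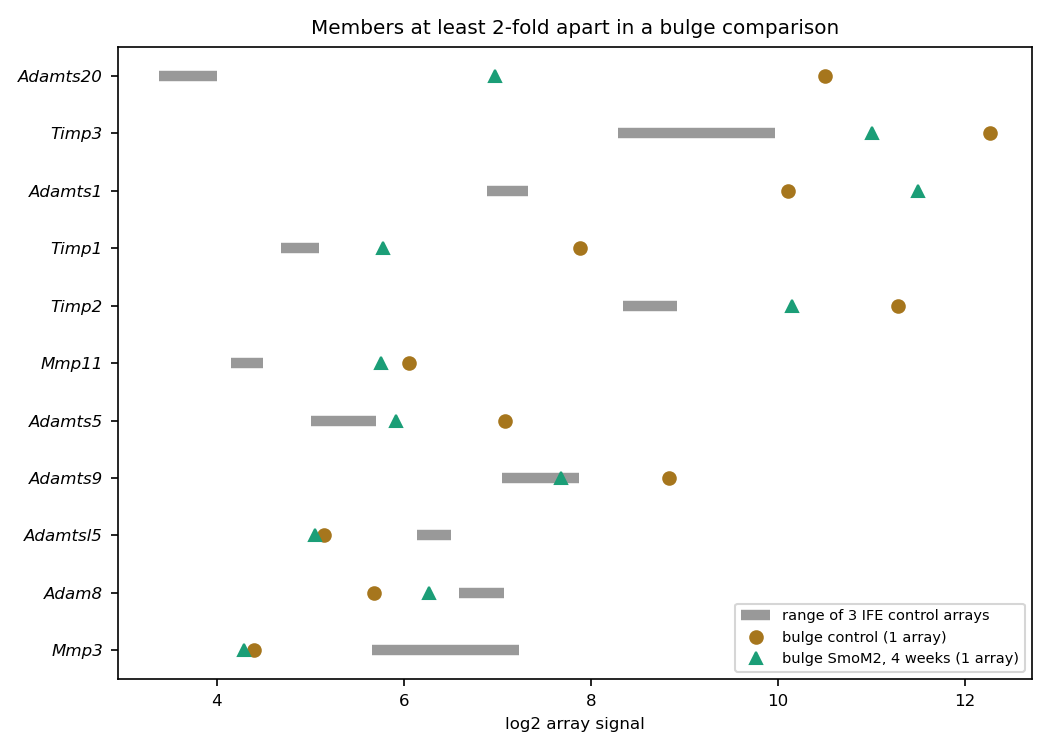
Log2 signal (horizontal axis) of the members at least 2-fold apart in a bulge comparison: the single bulge control array (circles), the single SmoM2 bulge array at 4 weeks (triangles) and the range of the 3 IFE control arrays (grey bars). Adamts20 goes from at most 4.00 in IFE control to 10.50 in the bulge control and 6.97 with SmoM2, and Adamts1 is the member whose SmoM2 array exceeds its bulge control 2-fold.

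Proteins that switch these enzymes on or hold them in check, or that they cut, were followed in 2 lists, both chosen with earlier results of these data known. Of 31 partners tested, which include proprotein convertases, the plasminogen activators and their inhibitors, cathepsins, and the rhomboid and tetraspanin partners of Adam17 and Adam10, 1 rose at 4 weeks and none fell, where 3.24% of all genes passed. It was Reck, a membrane-anchored MMP inhibitor, with 5.13, 4.80 and 4.37 in control and 6.97, 5.91 and 5.57 at 4 weeks (difference 1.38 ± 0.33, adjusted p = 0.0449). The median difference of the partners was 0.16. With β-catenin loss against SmoM2 alone, 1 of the 31 fell, Plat, the tissue plasminogen activator, by 2.19 ± 0.50 from a mean of 8.49 to 6.30 (adjusted p = 0.0496), where 2.23% of all genes passed, and the median was −0.12. At an unadjusted p under 0.05 there were 11 of the 31 at 4 weeks and 8 with loss against SmoM2 alone, beside 15.1% and 17.2% of all genes. In the other IFE comparisons none of the 31 passed by limma, and at an unadjusted p under 0.05 it had none of them at 3 days and from 2 to 5 in the rest, beside 4.74% to 14.6% of all genes.

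Of 8 hyalectan and hyaluronan genes tested, none passed in any comparison by limma. At an unadjusted p under 0.05 it had 2 at 1 week and 2 at 4 weeks against control, Vcan and Has3 each time, 1 between 4 and 10 weeks (Vcan) and 3 between loss and SmoM2 alone (Vcan, Has3 and Cd44), and 0 in the other 4 comparisons. Of all genes, 4.74%, 15.1%, 6.25% and 17.2% had such a p in these comparisons, in that order, and 1.55% to 14.6% in the other 4. Vcan, the gene of versican, a substrate of Adamts1, Adamts9 and Adamts20, read 7.39, 7.32 and 4.80 in control and 11.55, 9.07 and 10.22 at 4 weeks, without overlap, with a difference of 3.78 ± 1.00 (adjusted p = 0.0692). It was 7.64 in both 10-week arrays, and 11.36 and 11.10 in the bulge. The hyaluronan synthase gene Has3 averaged 6.41 in control and 8.01 at 4 weeks (adjusted p = 0.251), and Cd44, the hyaluronan receptor, 11.87 and 12.42 (adjusted p = 0.377).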

How the data were processed

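Sorted cells of 16 samples in 8 groups, taken from the sample labels, were profiled on Affymetrix arrays, with RNA amplified by a 3' in vitro transcription kit per the labels' protocols. The authors deposited log2 values of 45101 probe sets, and R 2.14.0 appears in the submitters' processing notes. How probes were corrected for background, normalized and summarised is not given in the sources used here. Precision is limited by the number of arrays. By the array annotation 34945 probe sets named 1 gene, 932 several and 9211 none, and all 70 members matched RefSeq by identifier. No genome build was given for the array, so only promoter windows have coordinates.

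Groups were compared with limma 3.58.1 in R 4.3.3 (group means over the 14 IFE arrays, empirical Bayes, 11.6 total degrees of freedom), with p-values adjusted by Benjamini-Hochberg over the 14285 genes above the 40th percentile in at least 2 arrays, at a threshold of 0.05. The procedure was tested on simulated data. Members and lists were chosen with earlier results of these data known. Named genes were those past the threshold, up to 5 each way per comparison of at least 2-fold without overlap, the 5 largest bulge differences each way, and a fixed set, some of whose genes are not analysed here. Replicate numbers pair the samples, by the data and not the design: over the control, 1-week and 4-week groups, deviations from the group mean correlated at 0.34 to 0.70 between arrays of the same number and at −0.53 to −0.0021 otherwise. Because each group was centred on its own mean, positive values for the same number pull the others negative, so these ranges are not independent. The 10-week titles and descriptions give different numbers, so both were used as a block. Further alternatives were quantile or median scaling, signal filters, fits of the compared groups alone or of all arrays, array weights, a trended robust prior, the mean of all probe sets, Y-linked signal as a covariate, and leaving out each array.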

Additional observations from a re-analysis of the deposited data

Results flagged for a closer look

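The contrast between SmoM2 with β-catenin loss and SmoM2 alone at 4 weeks is the difference between the effects of these groups against the same controls, and 4 members passed its test. Adam10 differed by −1.10 (adjusted p = 0.045), Adamts9 by −2.63 (adjusted p = 0.0491), Mmp11 by −1.05 (adjusted p = 0.0288) and Timp2 by −2.11 (adjusted p = 0.0431), each lower with loss in 2 of 2 arrays than in all 3 arrays of SmoM2 alone. Adam10 was lower only in the probe set used, and its others differed by 0.24, 0.03 and 0.12. Over the alternatives the adjusted p ranged from 0.0174 to 0.811 for Adam10, with 9 of 17 under the threshold, and from 0.0183 to 0.353 for Adamts9, with 7 of 17. It ranged from 0.0168 to 0.258 for Mmp11, with 12 of 16, and from 0.026 to 0.195 for Timp2, with 10 of 17.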

How the results depend on the processing

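None of the differences that passed reversed under any alternative, but no alternative used another probe set alone. The same held for the largest differences from control of at least 2-fold without overlap, up to 5 each way, in groups of 2 or more arrays. Other named differences were not followed this way. That of Adam17 at 10 weeks was −0.31 in the probe set used and 0.80 and 0.47 in its others. Adam10, with β-catenin loss against SmoM2 alone, differed by −1.10 in the probe set used and by 0.24, 0.03 and 0.12 in its others. The count of members past the threshold at 4 weeks, 2, was 1 with arrays centred on their median, with only the groups compared or with array weights, 4 with either replicate block, and 0 to 2 without 1 array. At 10 weeks the count of 1 was 5 with only the groups compared, 10 with array weights, 2 with either replicate block, and 0 to 1 without 1 array. For β-catenin loss against SmoM2 alone the count of 4 was 2 with no signal filter, with the mean of all probe sets or with Y-linked signal as a covariate, 1 with array weights, 0 with only the groups compared and 0 to 2 without 1 array. With the mean of all probe sets, the members at least 2-fold apart without overlap went from 2 to 1 at 1 week, from 1 to 0 between 1 and 4 weeks, and from 2 to 1 between 4 and 10 weeks. Beyond the values given with the results, the replicate block changed no other call. Over all 14285 genes, the 463 calls at 4 weeks were 873 and 856 with the block by title and by description. The 100 calls at 10 weeks were 738 with only the groups compared, 1545 (10.8%) with array weights and 163 and 207 with the block. The 318 calls of β-catenin loss against SmoM2 alone were 17 with only the groups compared, 102 with array weights, 144 with the Y-linked covariate and 1347 and 1181 with the block. Scaling moved the median of all genes by less than 0.1, at most −0.06. The cause of these shifts was not tested. Signals near the bottom of the scale, such as those of Mmp11 and Mmp13 in control, limit how small a level can be read.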

Other observations

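Of the 45 members tested, 11 (24.4%) had their highest signal in replicate 2 in each of the control, 1-week and 4-week groups, against 14.7% of all 14285 genes. They were Adam4, Adam12, Adam15, Adam21, Adam33, Adamts10, Adamts16, Adamtsl2, Adamtsl4, Mmp7 and Mmp10. Adam33, for example, read 6.92, 6.72 and 6.95 in these arrays and 5.76 to 6.13 in the other 13.

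Some members below or near the filter stood out in 1 array. Adam22, an ADAM of nerve without protease activity, read 6.6 in replicate 1 at 4 weeks and at most 5.96 elsewhere. Mmp12, the macrophage elastase, read 5.24 in the SmoM2 bulge array and at most 3.98 elsewhere. Adamts12 read 5.97 in the bulge control and at most 4.47 elsewhere. These values have no replicate.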
